A study of Saccharomyces cerevisiae with 13 samples.

Results

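The genes described here are the 500 earliest-replicating genes of the deposited tables, taken from 6326 genes. They were chosen by the fitted replication time that the tables list for each gene, among genes on all chromosomes but 12 whose transcription start site (TSS) lies over 1000 bp from the nearest ARS (autonomously replicating sequence, the yeast replication origin). Under these conditions 5311 genes had a replication time above 0, so the comparison set of other genes holds 4811. No signal measured in these libraries entered the ranking. The reading of 0 as no value, described below, drew in part on the signal of the total chromatin library. The replication time of the 500 genes ranged from 20.1 to 34.3, in a unit that the sources used here do not give, against 34.3 to 99.4 in the other genes.

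All 13 libraries come from a W303 derivative that carries the h-ENT1 transporter and a thymidine kinase. Together these let yeast take up and use EdU, and the labels spell the latter HPV-Thymidine kinase. The libraries are those of *rtt109Δ* cells, which lack the acetyltransferase of histone H3 lysine 56, while the source label names a *chd1* deletion. Asynchronous cells were labelled with EdU for 5 min, incubated with thymidine for a further 5 min, and fixed with formaldehyde. Chromatin was digested with MNase, and nascent DNA was purified through biotin coupled to EdU (nascent chromatin avidin pulldown, NChAP). Replicate 1 was sampled at 0, 2, 4, 6, 8 and 15 min after the thymidine incubation and replicate 2 at 2, 4, 6, 8, 15 and 25 min, and 1 library of total chromatin (bulk) was made without the pulldown. No library of a strain with Rtt109 was analysed here, so nothing below is a comparison with wild type.

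A few facts of the whole series touch these values. The depth read from the step between values was lowest at 0 and 4 min of replicate 1, with 2.57 and 4.94 reads per 20 bp bin, and lay between 20.4 and 78.1 in the other libraries. *RTT109* had a body signal of 0.0230 to 0.0675 in replicate 1 and 0.0632 in bulk, while *CHD1* had 0.788 to 1.15 in every library. In replicate 2 the genes of chromosome 12, *RTT109* among them, were listed at 0. On the deposited scale the mean body signal of the other genes was 1.18 to 1.21 in replicate 2 from 2 to 15 min. It was 1.03 to 1.06 at the same times of replicate 1 and 1.14 in bulk. The part of the zeros in this difference was not tested. The 25 min library of replicate 2 had a promoter profile unlike the rest. Nascent libraries at 2 and 4 min of both replicates (early, n = 4) were therefore compared with those at 8 and 15 min (late, n = 4), with 0, 6 and 25 min given beside them.

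Budding yeast starts DNA replication at many ARSs, which are licensed in G1 by the origin recognition complex and the Mcm2-7 helicase and then fire at characteristic times in S phase. Origins near centromeres and several well-studied ones on the arms fire early, while those close to telomeres fire late. Behind each fork, parental and new histones are assembled into nucleosomes, and the nucleosome-depleted region (NDR) of promoters and the +1 nucleosome downstream of it have to be set up again. H3K56 acetylation by Rtt109 is a mark of newly made histones in S phase.

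Of the 26 early genes whose body signal rose over the chase, as described further on, 11 had ARS305, ARS306 or ARS607 as their nearest ARS. The sequences of these origins are shown for that reason, as annotated in RefSeq for R64. Both ARS305 and ARS306 lie on chromosome III, at chrIII:39508-39595 and chrIII:74458-74677, and ARS607 on chromosome VI, at chrVI:199395-199505. Each is printed from the plus strand, 5′ to 3′, and capitals mark the best match on either strand to the ARS consensus sequence, an element of 11 letters bound by the origin recognition complex.
ARS305: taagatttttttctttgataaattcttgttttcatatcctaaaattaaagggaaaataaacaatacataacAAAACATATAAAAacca
ARS306: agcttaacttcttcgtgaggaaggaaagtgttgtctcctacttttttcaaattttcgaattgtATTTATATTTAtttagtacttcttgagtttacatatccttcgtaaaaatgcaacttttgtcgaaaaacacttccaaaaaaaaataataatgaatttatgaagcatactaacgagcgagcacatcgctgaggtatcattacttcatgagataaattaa
ARS607: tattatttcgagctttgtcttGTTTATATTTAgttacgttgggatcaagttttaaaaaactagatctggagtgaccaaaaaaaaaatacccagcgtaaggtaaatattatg

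In ARS306 all 11 letters matched, on the plus strand. In ARS607 the best match had 10 letters on the plus strand, and in ARS305 a pair of overlapping matches had 10 letters on the minus strand. A match of at least 10 letters was present in 85.2% of the 351 ARSs annotated on nuclear chromosomes, whose median length is 241 bp, and in 18.8% of 60349 windows of 200 bp of the nuclear genome. A match of all 11 letters was present in 35% of the ARSs and 1.23% of the windows. These matches describe the annotated sequence and say nothing of the use of the origin in these cells. The build of the deposited tables is not given in the sources used here, and the ARS positions they imply differed from those of R64 by a median of 1033 bp over 233 ARS names found in both, after a trailing letter a was removed. Distances from an ARS below are those of the deposited tables.

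A low replication time was checked against what else the tables list. A second replication time column had a median of 23.4 in the 500 early genes, 31.6 in the other genes and 37.8 in the 500 latest. The ordering by both columns was related across the 5311 genes with a Spearman rho of 0.56, given as a description since genes along a chromosome share their replication. The early genes lay a median of 5757 bp from the nearest ARS, against 11638 bp in the other genes and 24071 bp in the latest. They also lay closer to centromeres. By R64 coordinates of the 448 early genes with a locus tag, the median distance from the centromere was 78.5 kb, and 37.1% lay within 50 kb of it, against 217 kb and 11.4% in the other genes. Low values therefore went with early values of the second column and with short distances from an ARS.

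An exception were the genes listed at exactly 0. Of these, 132 were in the tables. Those over 1000 bp from an ARS and off chromosome 12 would have made up 20.4% of the list of 500 under the literal ranking. The median second replication time of the latter was 36.6, their median distance from an ARS 16016 bp, and 42.2% of them were at 0 or had no values in the bulk library. No gene had a value between 0 and 20.1. A value of 0 was therefore read as no value, which leaves 398 genes in common with the literal list, and results with the zeros kept are given where they differ. The fitted column also stood apart from the 2 gene lists that the study drew up from genes near ARSs of known timing. The 232 genes with a value of its early list had a median fitted replication time of 49.6 and the 196 of its late list one of 44.4. In the second column the order was the other way, with 30.8 in the early and 33.5 in the late list. Of the 238 and 212 genes of these lists, 12 of the former (5.04%, 2.40% of the early genes here) and 11 of the latter (5.19%, 2.20%) were among the 500. Only 185 and 136 of the list genes met the conditions on ARS distance, chromosome and a value above 0. The 500 are 9.41% of all genes that met them. Among the 500 latest genes by the fitted column, 34 were on the study's early list and 2 on its late list. List genes with a value lay a median of 10950 bp (early list) and 2600 bp (late list) from the nearest ARS. The early genes here are thus early by the fitted column, and few of them are on the study's list.

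The earliest of all was *SRO9*, which codes for an RNA-binding protein, at 20.1, 17.9 kb from ARS306. It was followed by *MHF1* at 20.3, which codes for a histone-fold protein, YMR046W-A at 20.4, YDR008C at 21.8 and *GAL3*, the galactose sensor, at 21.9. The last genes inside the threshold were *SPB1*, *ALK2* and *PDR1*, each at 34.3, and the first outside it *CYS3* at 34.3 and *PHO90* and *KRI1*, both at 34.4. The second column listed 15.8, 19.3 and 31.2 for the former and 29.3, 30.1 and 29.1 for the latter, so neighbours at the threshold differ little in the value that divides them.

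The 500 genes lay on 15 chromosomes. In 69.4% of them the TSS had a negative distance, on the side of lower coordinates of the ARS, against 49.9% of the other genes. By the tables' promoter classes 73.4% were TFIID-dominated and 10.0% SAGA-dominated, against 78.1% and 7.98% of the other genes. Their median gene length was 1199 bp and that of the other genes 1215 bp. The median Pol2 occupancy, whose unit is not given in the sources used here, was -0.076 in the early genes and -0.000413 in the others.

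The body signal, the mean coverage from 0 to 1000 bp downstream of the TSS relative to the mean of the library, was low in the early genes soon after the pulse and rose through the chase in both replicates. Divided by the mean of the other genes of the same library, the signal in replicate 1 started at 0.798 in the 0 min library, passed through 0.867, 0.870 and 0.942 in the libraries taken at 2, 4 and 6 min, and reached 1.02 and 1.11 at 8 and 15 min. The libraries of replicate 2 gave 0.849, 0.868 and 0.933 for 2, 4 and 6 min, followed by 1.02, 1.12 and 1.11 for 8, 15 and 25 min. The early genes thus stood below the other genes up to 6 min and above them from 8 min, at similar values in both replicates. In bulk chromatin the ratio was 1.11.

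On the log2 scale the early genes were at -0.21 ± 0.016 (SD, n = 4) relative to the other genes in the early libraries and at 0.09 ± 0.078 (SD, n = 4) in the late ones. The difference of 0.30 came from 0.29 in replicate 1 and 0.32 in replicate 2, and all 4 late libraries lay above all 4 early ones. No p is given for these values over the 500 genes, since the genes were proposed with results of these data known. In the 500 latest genes the corresponding values were 0.15 ± 0.0094 early, 0.08 ± 0.019 late and -0.11 in bulk, each relative to the other genes, of which they are a part. With the genes at 0 kept in the list, the values were -0.35 early, -0.06 late and -0.01 in bulk. The late-minus-early difference was then 0.29, and the bulk value lay on the other side of 0. Low bulk signal was among the grounds for leaving the genes at 0 out, so the bulk ratio is not independent of that step. The signal is relative within a library, so a higher share of the early genes and a lower share of the rest cannot be told apart.

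**Figure D1:**
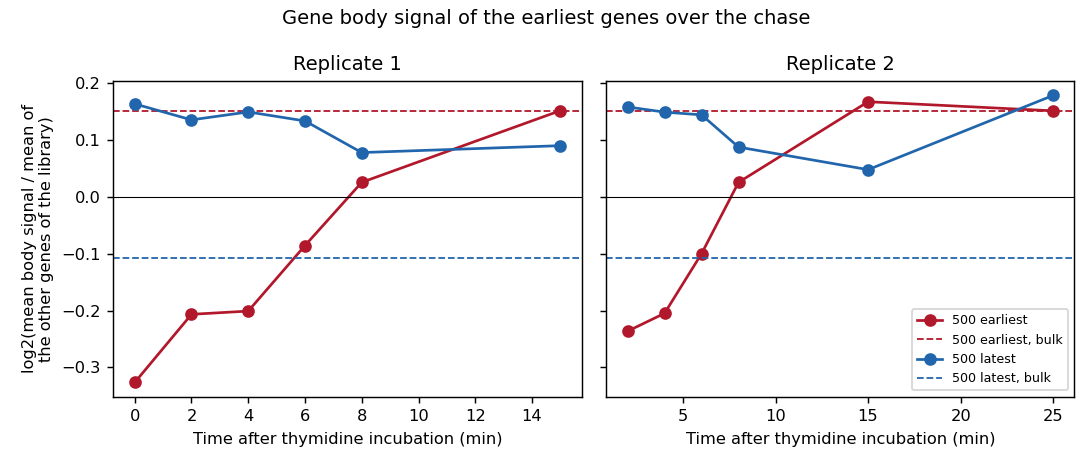
Log2 ratio of the mean body signal of the 500 earliest and the 500 latest genes to that of all other genes of the same library, against minutes after the thymidine incubation, in each replicate; each point is 1 library, and dashed lines are the bulk library. The earliest genes cross 0 between 6 and 8 min and reach the bulk value of 0.15 by 15 min in both replicates.

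The relation of signal to replication time extended beyond the 500 genes and differed between early, late and bulk libraries. When the 5311 genes were divided into 10 groups by replication time, the median body signal relative to all these genes was 0.859 in the earliest group and 1.17 in the latest in the early libraries. In the late libraries it was 1.02 in the earliest and 1.07 in the latest group, with the lowest value, 0.959, in the fourth group. In bulk chromatin it was 1.09 in the earliest and 0.939 in the latest group. Across genes, Spearman's rho of body signal with replication time was 0.271 and 0.256 at 2 and 4 min of replicate 1 and 0.0533 at 15 min. In replicate 2 it was 0.312 and 0.310 at 2 and 4 min and -0.00835 at 15 min, and in bulk it was -0.136. These rho values are descriptions over genes of 1 library each and are not independent of the neighbourhood of genes.

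**Figure D2:**
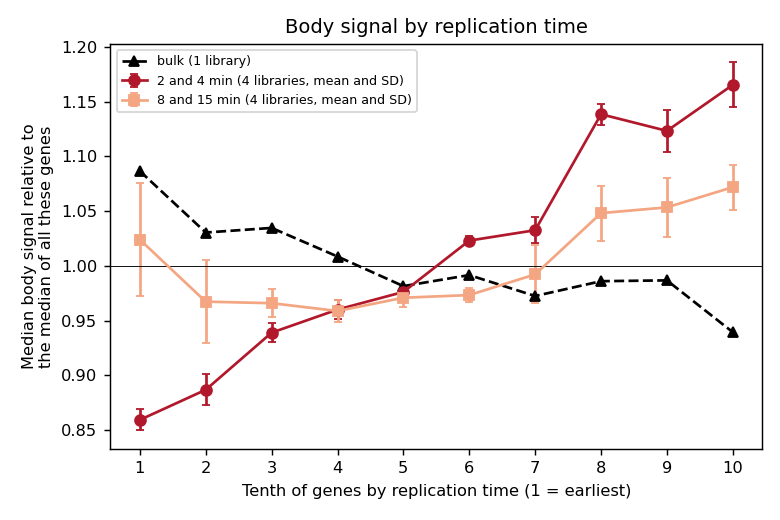
Median body signal of 10 groups of genes ordered by replication time, relative to the median of all these genes in the library; points with bars are the mean and SD of 4 early and of 4 late nascent libraries, triangles the 1 bulk library. In the early libraries the signal is lowest in the earliest genes at 0.859 and highest in the latest at 1.17, and in bulk the order is the opposite.

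Gene by gene, 26 of 497 early genes tested had a higher body signal in the late libraries and 0 a lower one, by limma with Benjamini-Hochberg adjustment over 5678 genes (adjusted p under 0.05). Over all genes tested 1.5% were higher and 0.176% lower. At an unadjusted p under 0.05, 191 early genes were higher and 4 lower, against 11.8% and 6.16% of all genes tested. With the replicate number as a block, 59 early genes were higher and 0 lower, against 3.59% and 0.845% of all genes, and all of the 26 were among the 59. The median log2 change was 0.26 in the early genes, -0.08 in the 500 latest and 0.01 over all genes tested. A change above 0 was seen in 86.1% of the early genes, against 51.5% of all genes. All 4 late libraries lay above all 4 early ones in 23.5% of the early genes, against 7.12% of all genes tested, and below them in 1.01%, against 3.79%. The change had the same upward direction in both replicates in 362 early genes (72.8%), against 35.2% of all. With the zeros kept, 22 genes rose and 1 fell.

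The number of calls depended on the filter and on single libraries. Without the filter on low body signal limma made no call among the early genes, those named below included, and 181 were higher at an unadjusted p under 0.05. With the filter, the count was 7 without the 2 min library and 9 without the 15 min library of replicate 1, and 16, 10 and 9 without the 2, 8 and 15 min libraries of replicate 2. Leaving out the 8 min library of replicate 1 raised it to 40, while either replicate alone gave 1 or 2.

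The largest change was that of YCL042W, an open reading frame whose TSS lies 11.6 kb from ARS305. Its body signal was 0.273 and 0.260 at 2 and 4 min and 1.36 and 1.82 at 8 and 15 min of replicate 1. In replicate 2 it was 0.505 and 0.500 at 2 and 4 min and 1.44 and 1.67 at 8 and 15 min, and in bulk 1.07. The late libraries lay well above the early ones and also above bulk, with a log2 change of 1.82 (SE 0.18, limma adjusted p = 0.00015). *GLK1*, the gene of glucokinase, starts 240 bp from YCL042W, so that the windows of both overlap and are not independent. Its body signal went from 0.970 ± 0.13 in early to 1.89 ± 0.18 in late libraries (SD, n = 4 each, log2 change 0.90, limma adjusted p = 0.00522).

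Near ARS607, *CSS2* had a body signal of 0.0249 and 0.0232 at 2 and 4 min and 0.421 and 0.932 at 8 and 15 min in replicate 1. In replicate 2 the values were 0.242 and 0.116, then 0.336 and 0.635, and in bulk 0.583. The log2 change was 1.81 (SE 0.30, limma adjusted p = 0.00626), with all late values above all early ones. The call was lost without replicate 1 or without its 2 min library. At 2 and 4 min of replicate 1 the signal of *CSS2* lay within the range given above for the deleted *RTT109*, so its change starts near the floor. The stricter filter left *CSS2* out. *LSB3*, which codes for a protein of cortical actin patches, had 0.404 and 0.386 early and 0.746 and 1.19 late in replicate 1. In replicate 2 it had 0.403 and 0.484 early and 0.890 and 1.73 late, and in bulk 1.36. Its log2 change was 1.19 (SE 0.20, limma adjusted p = 0.00626), and its call was lost with either replicate alone. *ATG18*, an autophagy gene near the same ARS, rose from 0.498 ± 0.041 to 1.08 ± 0.18 (SD, n = 4 each, limma adjusted p = 0.00311).

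YDR344C, near an ARS on chromosome 4, had 0.216 and 0.211 at 2 and 4 min and 0.615 and 0.995 at 8 and 15 min in replicate 1. In replicate 2 the values were 0.444 and 0.574, then 0.826 and 1.25, and in bulk 0.811. The groups did not overlap, and the log2 change was 1.19 (SE 0.24, limma adjusted p = 0.0242). YOL085W-A, near ARS1510, had 0.465 and 0.521 early and 1.57 and 1.26 late in replicate 1. In replicate 2 it had 0.550 and 1.04 early and 1.43 and 1.29 late, with 1.18 in bulk (log2 change 1.06, SE 0.19, limma adjusted p = 0.0113). The calls of YDR344C and YOL085W-A were lost with either replicate alone and without the 2 min library of replicate 1, and that of YDR344C also without the 15 min library of replicate 1 or the 8 or 15 min library of replicate 2.

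The other genes past the threshold had log2 changes from 0.53 to 1.04. *SSA1*, which codes for an Hsp70 chaperone, rose from 0.412 ± 0.081 to 0.906 ± 0.20 (SD, n = 4 each), and *MIM1*, needed for import into the mitochondrial outer membrane, from 0.625 ± 0.25 to 1.32 ± 0.079. Their limma adjusted p were 0.00912 and 0.0214. The 3 neighbours of ARS306 started at far higher levels, since the mating gene *FUS1* rose from 2.20 ± 0.19 to 3.37 ± 0.31 and *BIK1*, which codes for a microtubule-binding protein, from 1.47 ± 0.11 to 2.28 ± 0.20. *FRM2*, another of them, went from 2.24 ± 0.31 to 3.64 ± 0.26. The limma adjusted p of *FUS1*, *BIK1* and *FRM2* were 0.0423, 0.0406 and 0.0242.

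**Figure D3:**
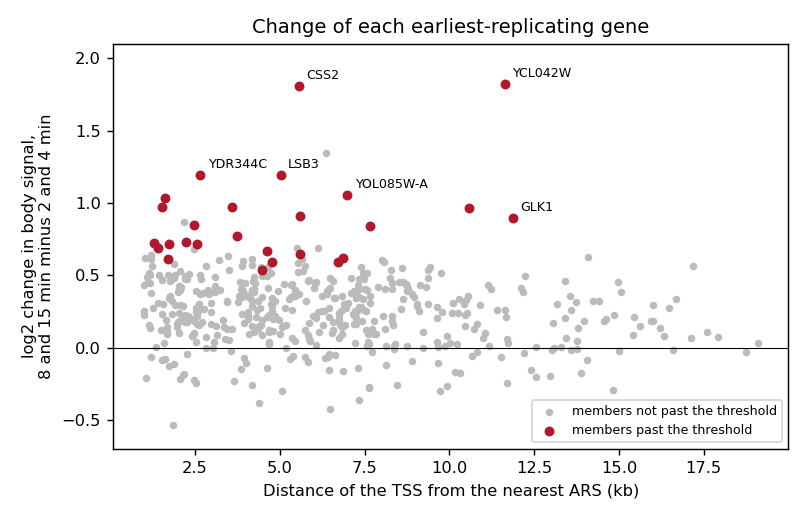
Log2 change in body signal from early to late nascent libraries of each of 497 early genes, against the distance of its TSS from the nearest ARS in kb; red points are the 26 genes past the threshold. Most points lie above 0, and YCL042W and *CSS2* have the highest changes, at 1.82 and 1.81, the latter from an early signal near the floor in replicate 1.

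By nearest ARS, the genes past the threshold were spread over 16 ARSs. Of 25 tested early genes nearest ARS305, ARS306 or ARS607, 11 were past it. Near ARS305 all 7 rose in both replicates, with a median log2 change of 0.72, and near ARS607 all 6, with a median of 1.08. Near ARS306 the median of 12 genes was 0.46. The level before the rise differed, with a median early body signal of 1.77 near ARS305, 1.92 near ARS306 and 0.459 near ARS607. A high level was not particular to ARS305 and ARS306 on chromosome 3. Near ARS307 and ARS314.5 of the same chromosome it was 1.79 and 1.64, over 4 genes each. With 1 gene each, ARS304 was at 1.795 and ARS310 at 1.14. Among the 46 ARSs with at least 5 tested early genes, 43 had a median change above 0. Without the genes nearest ARS305, ARS306 or ARS607 the difference between early genes and the others was 0.28 on the log2 scale and 15 genes were past the threshold.

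By chromosome, the median change of the early genes was above that of the other genes on all 15 chromosomes examined. It was highest on chromosome 3, at 0.46 over 29 genes against 0.06 in the other genes there, and on chromosome 6, at 0.40 over 19 genes against -0.01. On chromosome 16 it was 0.06 over 61 genes against -0.05. Chromosomes 11 and 13 had only 1 and 2 early genes. Within the 500 genes, those nearest to an ARS when divided into 3 equal parts by distance, up to 4181 bp, had a median change of 0.30 with 12 past the threshold, the middle part 0.28 with 10, and the farthest 0.20 with 4. Spearman's rho of the change with the second replication time was -0.40 over 497 genes, and with the fitted replication time, whose range was set by the choice of genes, -0.15. SAGA-dominated and TFIID-dominated early genes had medians of 0.32 and 0.25.

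Between nascent and bulk chromatin, the body signal was scaled in each library by the median over the 5311 genes, because of the different scale of replicate 2. Bulk lay above all 10 nascent libraries from 2 to 15 min in 150 of 494 early genes (30.4%) and below all of them in 21 (4.25%). Over all genes these shares were 14.4% and 14.3%, and in the 500 latest genes 3.92% and 39.6%. The median log2 difference of bulk from the nascent mean was 0.18 in the early genes, -0.22 in the latest and 0.00483 over all genes. Bulk is 1 library, so these counts are an order of values without a test.

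The largest excess of bulk was in YPL025C, with a scaled signal of 0.399 in bulk and 0.0415 to 0.170, median 0.0786, in the 10 nascent libraries. *UTR5* had 0.300 against 0.0234 to 0.254 (median 0.0533), YJL015C 1.67 against 0.575 to 1.15 (median 0.715), and YAR019W-A 1.99 against 0.578 to 1.44 (median 0.943). *HYP2*, which codes for the translation factor eIF5A and is a neighbour of *UTR5*, had 1.23 against 0.376 to 0.979 (median 0.503). The log2 differences of these genes were between 0.99 and 1.42, and the signal of the first and second was low in all nascent libraries.

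The 5 genes with the largest deficit in bulk were all on chromosome 3. *HBN1* and *FRM2*, neighbours that code for nitroreductase-like proteins near ARS306, had scaled signals of 1.40 and 1.41 in bulk. In the nascent libraries *HBN1* ranged from 1.96 to 3.90 (median 2.91) and *FRM2* from 1.79 to 3.34 (median 2.64). *SRO9* had 0.868 in bulk against 1.39 to 1.87 (median 1.62) in nascent chromatin. *CTR86* had 1.07 against 1.76 to 2.20 (median 1.93). *LDB16*, a gene of lipid droplet assembly near ARS307, had 1.31 against 1.63 to 3.32 (median 2.21). A count over chromosome 3 was made after these values were seen. Of its 29 early genes, 18 had bulk below all 10 nascent libraries and 0 above them, with a median log2 difference of -0.55. The other genes of chromosome 3 were low in bulk too, since 96 of 120 lay below all nascent libraries and 2 above, with a median of -0.77. Without chromosome 3, bulk lay above the nascent range in 150 early genes and below it in 3. The shares over all genes given above include chromosome 3, so they are not the background of these counts. No share over all genes without that chromosome is given here, so these counts are not read as a trait of the early genes. The rise in body signal over the chase was 0.28 on the log2 scale without that chromosome, with 19 genes past the threshold.

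The nucleosome profile of the early genes had its +1 peak at 50 bp and its second peak at 210 bp in bulk, as did that of the other genes. In the nascent libraries from 2 to 15 min these peaks were at 50 or 70 bp and 210 or 230 bp in the early genes, against 50 and 210 bp in each library in the other genes, a difference of at most 1 bin of 20 bp. The array was flatter in the early genes. The peak/trough ratio, the height of nucleosomes +2 to +7 over the troughs beside them, was 1.08 ± 0.010 (SD, n = 10) in the nascent libraries and 1.14 in bulk, and in the other genes 1.11 ± 0.010 and 1.16. The difference was -0.031 ± 0.0078 (SD, n = 10), and the early genes were below the other genes in 13 of 13 libraries. Against the 500 latest genes it was -0.049 ± 0.0071, with the early genes again lower in all 13.

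The height of the +1 nucleosome, divided by the average over -500 to 1000 bp, was in the early genes 1.20 ± 0.029 (SD, n = 10) for nascent libraries and 1.31 for bulk, against 1.25 ± 0.023 and 1.40 in the other genes. It was lower than in the other genes in all 13 libraries. NDR depth, the minimum between -200 and 0 bp divided by the same average, was 0.526 ± 0.027 (SD, n = 10) for nascent libraries and 0.526 for bulk, against 0.485 ± 0.013 and 0.488. The early genes had the higher value, and so the shallower NDR, in 12 of 13 libraries, the exception being 0 min of replicate 1. These differences were present in bulk as in nascent chromatin. The share of genes without a promoter class, 14.6% against 11.9% in the other genes, and the lower Pol2 occupancy given above stand beside them, and their part in the flatter profile was not tested.

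Over the chase, these measures of the early genes changed little next to the spread between libraries, apart from the +1 height. NDR depth averaged 0.524 ± 0.0086 in the early and 0.532 ± 0.045 in the late libraries (SD, n = 4 each). The 8 min libraries of replicates 1 and 2 gave 0.488 and 0.501 and the 15 min libraries 0.555 and 0.583, so that the late group mixes lower and higher values than the early one. The +1 height was 1.22 ± 0.024 early and 1.18 ± 0.023 late (SD, n = 4 each), a difference of -0.045 in replicate 1 and -0.044 in replicate 2, and the groups overlapped. With only 2 and 15 min compared it was -0.0151, within the spread. In the other genes the +1 height differed by -0.017. The peak/trough ratio was 1.08 ± 0.013 early and 1.08 ± 0.011 late (SD, n = 4 each), with differences of opposite sign in the replicates. At 25 min of replicate 2 the NDR depth was 0.920 in the early genes, where the other genes show the same departure.

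**Figure D4:**
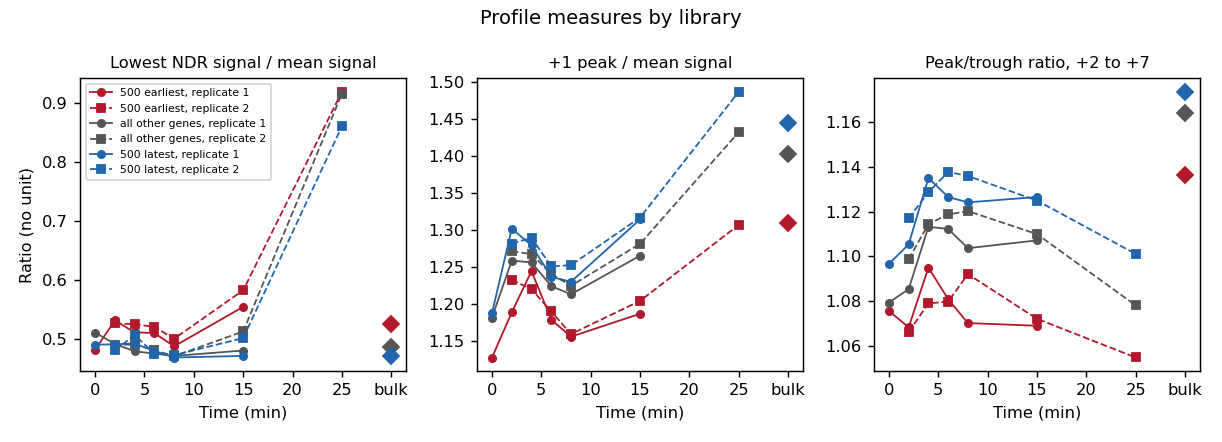
NDR depth, +1 height and peak/trough ratio of the average profiles, as ratios, by library against time in min, with bulk at the right as diamonds; colours are the 3 gene sets and line styles the replicates. The earliest genes have the lowest +1 height and peak/trough ratio in every library, and the 25 min library departs from the rest in NDR depth at 0.920.

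Per gene, the ratio of promoter signal (-150 to 0 bp) to body signal passed the test in no early gene. Of 497 tested, 0 passed an adjusted p of 0.05 by limma, while over all 5665 genes tested 0.0706% were higher and 0 lower. At an unadjusted p under 0.05, 23 early genes were higher and 24 lower, against 3.69% and 4.31% of all genes. The median log2 change was -0.03 in the early genes and -0.02 over all genes. The lowest p was that of *GLK1*, whose ratio was 0.314 and 0.0940 at 2 and 4 min and 0.991 and 1.32 at 8 and 15 min of replicate 1. In replicate 2 the ratio was 0.410 and 0.302 early and 0.765 and 1.07 late, with 0.660 in bulk (log2 change 1.64, SE 0.30, limma adjusted p = 0.164). Its late values lay above its early ones without passing the test, and with quantile normalization it passed, with a change of 1.57. YOL085W-A and *CSS2* came next, with log2 changes of -1.18 and -2.88 (limma adjusted p = 0.307 and 0.323), and the ratio of *CSS2* rested on its low early body signal.

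Peak-to-trough contrast within single genes, at the bins of nucleosomes +2 to +7 in bulk, was tested in 419 early genes, and 0 passed an adjusted p of 0.05 by limma. At an unadjusted p under 0.05, 24 were higher and 16 lower, against 5.55% and 3.12% of all genes. Over all 4776 genes tested 0.0838% were higher and 0 lower, and the median log2 change was 0.01 in the early genes and 0.01 over all. The genes with the lowest p were *ERP1*, of the early secretory pathway, *TCD1*, of tRNA modification, and *HAL5*, a kinase gene, with changes of 0.34, 0.26 and 0.27 (limma adjusted p = 0.147, 0.336 and 0.336), none of which passed.

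In bulk chromatin the ratio of promoter to body signal spanned a wide range in the early genes. It was 0 in YIL060W, 0.00936 in *MIN7* and 0.0184 in *ANB1*, the hypoxic gene of eIF5A, whose promoters held almost no signal. In the 10 nascent libraries from 2 to 15 min *ANB1* had a ratio between 0 and 0.0524, and at 25 min 0.561. The ratio was highest in *MTC7* at 4.36, YPR002C-A at 3.80 and YHR095W at 3.28, whose body signals of 0.261, 0.326 and 0.255 in bulk were low. Nascent libraries from 2 to 15 min had ratios of 1.56 to 7.27 in *MTC7*, 2.58 to 6.55 in YPR002C-A and 1.82 to 8.98 in YHR095W, so bulk lay within the nascent range in each.

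Some genes of the replication machinery itself were among the 500 early genes, out of 6326 genes in all. The shares below are of all listed genes, whether or not they met the conditions on ARS distance, chromosome and replication time. The 9.41% over the 5311 genes that met them is therefore not their background. Of 6 lists, replication initiation had 3 of 26 genes among them (11.5%), replication fork proteins 2 of 29 (6.9%), histone chaperones and H3K56 acetylation 1 of 18 (5.56%), chromatin remodellers 1 of 14 (7.14%), S phase regulation 3 of 17 (17.6%) and histones 0 of 10. With so few genes a list, these shares are a description. By limma over all genes, 0 of 23, 29, 17, 13 and 15 tested genes of the first 5 lists were higher or lower late, and 1 of 10 histone genes was higher. The median log2 changes of the 6 lists, in the same order, were 0.04, -0.00272, 0.00736, 0.03, 0.09 and 0.36, against 0.01 over all genes. None of the 10 listed genes among the 500 passed.

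*MCM3*, a subunit of the replicative helicase and a neighbour of *HYP2*, came closest. Its body signal was 0.879 and 0.886 at 2 and 4 min and 1.12 and 1.17 at 8 and 15 min in replicate 1, then 0.931 and 0.902 and 1.33 and 1.33 in replicate 2, with 1.67 in bulk. Its groups did not overlap, while the log2 change of 0.42 gave a limma adjusted p of 0.0972 (0.0441 with the replicate block). *MCM7*, another subunit, had a change of 0.39, and *DBF4*, the regulatory subunit of the origin-firing kinase, one of 0.24. *RFC3*, of the clamp loader, had 0.29 and *CSM3*, of the fork protection complex, 0.22. The G1 cyclin gene *CLN2* had 0.36 and the S phase cyclin gene *CLB5* 0.22. *MSI1*, a subunit of the chromatin assembly factor CAF-1, had 0.04, *SWI3*, of the SWI/SNF remodeller, 0.10 and *RNR3*, an inducible ribonucleotide reductase gene, 0.09. Scaled bulk signal lay above all 10 nascent libraries in *MCM3*, *MCM7*, *RFC3*, *SWI3* and *RNR3*, at 1.43, 0.580, 1.02, 1.79 and 1.73. The same was seen in 150 early genes in all and in 14.4% of all genes, so it was not particular to these genes.

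The strands of nascent DNA were alike in the early genes. The median log2 ratio between the strand replicated as leading and that as lagging, by the tables' annotation, lay between -0.0416 and 0.0268 in the 12 nascent libraries and was 0.00725 in bulk, and between -0.0263 and -0.00827 in the nascent libraries of the other genes.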

How the data were processed

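The authors deposited tables with 1 row per gene, library and strand, whose 20 bp bins around the TSS hold a coverage signal scaled to the library's mean. The submitters' processing notes name CASAVA 1.7.0. The aligner and build are not given in the sources used here. Cells holding the letter R or NaN (1.60%) were treated as missing, and 37956 rows of 6 names that belong to no sample were not used. Both strands were averaged.

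Gene names were matched to RefSeq R64 by locus tag (5699 of 6326), and centromere distances and ARS sequences were taken from R64 alone. Body, promoter ratio and peak/trough contrast were tested per gene with limma 3.58.1 in R 4.3.3, early against late libraries. Genes with a body signal above 0 in all 8 were tested, with Benjamini-Hochberg adjustment over all genes. Body and promoter ratio were taken as log2(value + 0.1), and the contrast as log2(peak + 0.1) minus log2(trough + 0.1). Fold changes are on these scales and understate those of low genes. The step was tested on simulated data. Profiles used Python 3.11.15 with numpy 2.4.6 and pandas 2.3.3, and figures matplotlib 3.10.9. The +1 peak was sought between 0 and 130 bp, and later peaks 120 to 210 bp beyond the previous one.

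Depth was read from the step between values. It gives counting error only and is lowest at 0 and 4 min of replicate 1. Aliquots of a replicate were taken from 1 culture by the growth protocol, so the numbers pair the libraries. Across genes, the deviations of same-numbered libraries from the group means correlated at -0.0244 to 0.0745. A shift of all genes of a replicate by the same amount would not show in this correlation. The main fit leaves this pairing out, so such a shift enters its SE and adjusted p. With the replicate block 59 early genes were higher, against 26 in the main fit. The SE and adjusted p given come from the main fit unless the block is named. The p-values measure the spread between these libraries, which mix times and cultures. An n of 4 counts libraries, which share cultures, and not independent cultures.

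Named genes are the 5 lowest replication times, 3 on each side of the threshold, up to 5 per direction with the largest change past each test (the 3 lowest p where fewer than 3 passed), 5 per direction outside the nascent range, the members of 6 lists, and the 3 highest and 3 lowest promoter ratios in bulk. *GLK1*, *ATG18*, *SSA1*, *MIM1*, *FUS1*, *BIK1* and *FRM2* were also named after their values were seen in the test of body signal. The genes and lists were chosen with earlier results of these data known. Alternatives covered the number of genes, ARS distance, comparison genes, averaging, pseudocount, filter, scaling, time grouping, replicate block and each replicate. The zeros, the second timing column, the deposited scale, the omission of 3 origins, of chromosome 3 and of single libraries were added after seeing the data.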

Additional observations from a re-analysis of the deposited data

Results flagged for a closer look

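Of 16 groups of libraries examined for a value far from the others, 3 had one, where chance gives about 1 in 20. Among the early libraries, the log2 ratio of the early genes to the other genes was lowest at 2 min of replicate 2, at -0.236, where the other 3 lay between -0.206 and -0.201. Among the late libraries, the peak/trough ratio of the early genes was 1.092 at 8 min of replicate 2, against 1.069 to 1.072 in the other 3. In replicate 2, the NDR depth of the early genes was 0.920 at 25 min, against 0.501 to 0.583 from 2 to 15 min. That time point has no second library.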

How the results depend on the processing

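The rise in the log2 ratio of the early genes to the others kept its direction under each alternative run. It was 0.324 with 250 and 0.265 with 1000 genes, 0.327 with the second timing column, 0.377 against the latest genes, 0.276 without the genes of 3 origins, 0.282 without chromosome 3 and 0.281 with medians over genes. Leaving out a replicate or library gave 0.280 to 0.327, and the replicate block gave 0.305. The bulk ratio of 0.151 was 0.259 against the latest genes and turned to -0.0116 when genes at 0 were kept. The NDR difference of 0.00773 was 0.0239 with 250 genes, 0.0212 with the second timing column, 0.0396 for 2 against 15 min and 0.0937 with 0 and 25 min counted in, and ranged from -0.00938 to 0.0223 over leave-outs. The +1 difference was -0.0769 with 250 genes, -0.0712 with medians, -0.0151 for 2 against 15 min and -5.725e-05 with 0 and 25 min, and -0.0558 to -0.0371 over leave-outs. The peak/trough difference was 0.0230 with medians and -0.0121 to 0.00948 over leave-outs. The number of early genes with a higher body signal late was 15 with 250 and 41 with 1000 genes, 15 without the 3 origins, 54 with a pseudocount of 1, 47 with quantile normalization (1 lower), 59 with the replicate block and 1 to 40 over leave-outs. The stricter filter gave 31. Without any filter limma gave 0, with 181 at an unadjusted p under 0.05. That fit includes genes listed at 0 throughout a replicate, and its part in the loss was not tested. With the zeros kept 1 gene was lower. The promoter ratio had 1 call with 1000 genes, with the second timing column or with quantile normalization (*GLK1*), and 0 in each leave-out. In the peak over trough contrast each leave-out gave 0. Genes with bulk below the nascent range were 44 with the second timing column, 10 with all 12 nascent libraries, 3 without chromosome 3 and 27 to 44 without a replicate. Those above were 182 to 211 without a replicate, and fewer by 27.3% with the second timing column and by 26% with all 12 libraries. The replicate block changed the call of no gene with a printed body change past the threshold. The second timing column shares 183 genes with the 500. Depth limits the 0 and 4 min libraries of replicate 1 most, bulk and 25 min are single libraries, and overlapping windows of neighbouring genes make counts of genes larger than counts of loci.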
